A study of Mus musculus with 24 samples.

Results

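Gene expression in virgin mutant mice was set against that in virgin wild-type mice of a series about BRCA1, a tumour suppressor of homologous recombination repair. The 6 virgin arrays, 3 mutant and 3 wild type, are those carrying the stage code V, out of 24 single-colour arrays in 8 groups of 3. The remaining groups are mutant and wild-type mice at the codes dp12, dp18 and Lac10, read here as pregnancy and lactation, although the design text counts its numbers in months. All mice shared a mixed strain background of FVB, 129SVEV and Black Swiss in shares of 80%, 10% and 10%. The 3 mutant virgins weighed 24, 25 and 22 g, and the 3 wild-type virgins weighed 27, 25 and 23 g. The labels name neither the mutated allele nor the tissue, nor whether arrays came from separate animals, so p-values measure the spread between these samples, which may be technical. Total RNA was labelled as biotin cRNA, while another label text describes RNA captured on a tagged PAB-1 protein, and which of them holds is not settled here.

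The virgin mammary gland is a branched tree of ducts in a fat pad. Its ducts hold an inner luminal layer, in which hormone-sensing cells carry the oestrogen and progesterone receptors, and an outer basal layer. Oestrogen acting through its receptor switches on the progesterone receptor gene, and progesterone makes hormone-sensing cells send RANKL and WNT4 signals to their neighbours. BRCA1 is known to restrain oestrogen receptor signalling in mammary cells, beside its part in DNA repair.

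Values are log2 expression from RMA (robust multi-array average), so a difference of 1 is a 2-fold change, and levels of different genes cannot be ranked against each other. The arrays were checked against markers of mammary cells, since the labels name no tissue. Krt8, a luminal keratin, lay at 11.5, 12.2 and 12.2 in mutant virgins, against 11.6, 11.5 and 11.9 in wild-type virgins. The milk protein gene Csn2 lay at 12.2, 10.2 and 12.7 in mutants, against 12.6, 11.5 and 12.1 in wild type. Of the adipocyte genes, Fabp4 lay between 11.5 and 12.3 on the 6 arrays, whereas Adipoq, which encodes adiponectin, lay between 4.68 and 5.43, below the array's median on 5 of the 6. The liver gene Alb lay between 4.31 and 5.25, below the median of all 6. Against array medians of 5.31 to 5.62, Krt8, Csn2 and Fabp4 thus gave signals above the median in both genotypes, and these markers do not rank the cell types.

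The probe set of Mir1933 and the promoters of Cyp3a57 and Pgr belong to 3 of the 4 genes that separated the genotypes in virgins, and their sequences are given first. The locus of Mir1933 encodes a pair of mature microRNAs from its 2 arms, on chromosome 11, minus strand, of GRCm38.p6 (RefSeq), at chr11:21344640-21344663 for the 5p arm and chr11:21344600-21344621 for the 3p arm. Capitals mark the seed, bases 2 to 8, through which a microRNA pairs with its targets. Each seed occurs in 1 of 1679 mature mouse microRNA names in the RefSeq table. The array probe set does not tell the mature RNA from its precursor or from a longer transcript of the locus.
mmu-miR-1933-5p: aGUCAUGGuguucggucuuaguuu
mmu-miR-1933-3p: cCAGGACCaucagugugacuau

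The 250 bases before the annotated start of Cyp3a57, chr5:145345019-145345268, plus strand, and of Pgr, chr9:8899583-8899832, plus strand (both RefSeq, GRCm38.p6), show where the steroid receptor half-sites GGTCA and AGAACA do or do not occur on either strand. Capitals mark the matches, which do not overlap.
Cyp3a57: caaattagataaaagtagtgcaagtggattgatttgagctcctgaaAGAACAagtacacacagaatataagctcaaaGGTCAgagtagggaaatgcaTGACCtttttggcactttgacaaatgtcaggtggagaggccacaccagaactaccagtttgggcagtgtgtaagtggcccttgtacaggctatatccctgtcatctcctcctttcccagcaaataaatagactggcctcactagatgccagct
Pgr: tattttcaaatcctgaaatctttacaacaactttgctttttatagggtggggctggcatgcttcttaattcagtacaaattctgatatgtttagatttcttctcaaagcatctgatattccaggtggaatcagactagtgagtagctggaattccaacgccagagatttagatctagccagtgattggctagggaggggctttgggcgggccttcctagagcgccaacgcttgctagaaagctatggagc
The Cyp3a57 window held GGTCA once on each strand, beginning 173 and 153 bases before the start, and AGAACA once, beginning 204 bases before it. The Pgr window held neither. Of 32851 promoter windows of the same length, 35.2% held GGTCA and 8.16% held it at least 2 times, while 16.1% held AGAACA, so these letters are common and a match is no evidence of a site.

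The virgin arrays of the 2 genotypes differed in how far they resembled the rest of the series. Over 15234 genes, the mutant virgin arrays had a median correlation of 0.926, 0.905 and 0.919 with the other 23 arrays. The wild-type virgin arrays had 0.883, 0.856 and 0.862, so all 3 resembled the rest less than any mutant virgin array did. Within the group, mutant virgin arrays correlated with each other at 0.953 to 0.962, and wild-type virgin arrays at 0.861 to 0.934. The median gene had an SD of 0.22 between mutant virgin replicates and 0.27 between wild-type virgin replicates, against 0.13 in either genotype at dp12, 0.45 in either at dp18, 0.51 in mutants at Lac10 and 0.23 in wild type at Lac10.

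The same arrays were set apart by genes of smell and pheromone detection, which act in sensory neurons of the nose. The file holds 1394 olfactory and vomeronasal receptor genes (names beginning Olfr, Vmn1r or Vmn2r, called chemoreceptor genes in the plots), chosen after their values were seen. Their mean level was 3.51, 3.52 and 3.60 in mutant virgins, against 4.35, 4.03 and 4.60 in wild-type virgins. Over all 24 arrays this mean fell into 17 arrays between 3.45 and 3.62 and 7 arrays between 4.03 and 5.07. The 7 were the 3 wild-type virgin arrays, 2 of the mutant Lac10 arrays, 1 mutant dp18 array and 1 wild-type dp18 array. Of all 1394 receptor genes, with no filter on low values, 1027 (73.7%) had all mutant virgin values below all wild-type ones and 2 had all above. Over all 22180 genes, the share below was 17% and the share above 18.3%. Only 377 receptor genes passed the filter, many of them through the high arrays alone, so no count over those 377 is given. All 3 wild-type virgin arrays and no mutant virgin array were high, so in virgins this array difference and the genotype cannot be told apart.

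**Figure D1:**
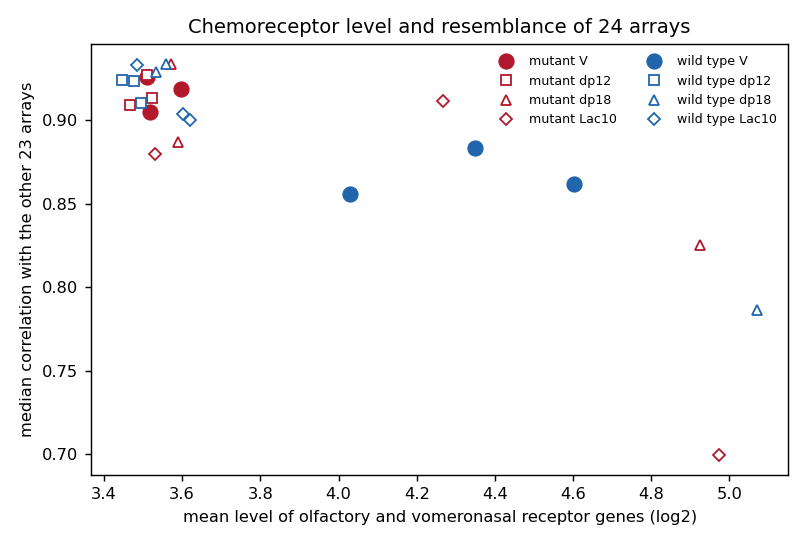
Mean log2 level of 1394 olfactory and vomeronasal receptor genes (horizontal axis) against the median correlation with the other 23 arrays (vertical axis), 1 point per array, coloured by genotype and shaped by stage, with virgins filled. The 3 mutant virgin arrays lie at 3.51 to 3.60, and the 3 wild-type virgin arrays at 4.03 to 4.60 with lower correlations.

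The largest differences below 0 were of this kind and did not pass the test in the fit on all arrays. Vmn1r129, a vomeronasal receptor gene, lay at 3.14, 3.02 and 2.96 in mutant virgins, against 8.47, 6.59 and 8.55 in wild-type virgins. Its difference was -4.83 ± 1.59 (SE, n = 3 each) with an adjusted p of 0.246. That SE pools the spread within all groups of the series, not the virgin groups alone. The SD of Vmn1r129 was 0.09 in mutant virgins and 1.11 in wild-type virgins. It was 3.66 in mutant dp18, 4.07 in wild-type dp18 and 2.63 in mutant Lac10, and 0.21 or less in the other later groups. In the other 4 high arrays Vmn1r129 lay between 6.93 and 9.94. Mir101c, a microRNA locus, followed the same arrays, at 4.75, 4.51 and 4.27 in mutant virgins, against 10.1, 8.46 and 9.44 in wild-type virgins and 9.51 to 11.0 in the other 4 high arrays. In a limma fit on the virgin arrays alone both genes passed, with adjusted p-values of 0.0072 for Vmn1r129 and 0.0052 for Mir101c.

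Outside virgins, 3 groups held both kinds of array (mutant dp18, mutant Lac10 and wild-type dp18), which allowed the high arrays to be set against the low arrays of their own group with no virgin array involved. Across the 15234 genes, the mean of these 3 within-group differences had a Pearson correlation of -0.73 with the difference in virgins, and of -0.64 over the 14857 genes that are not such receptors. The Spearman correlation over the 15234 genes was -0.59. Genes are not independent replicates, and arrays of either kind share whatever sets them apart, so the correlation is a description. Receptor genes, and others such as Mir101c, passed the filter through the high arrays alone, and how far this sets the correlation was not tested.

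**Figure D2:**
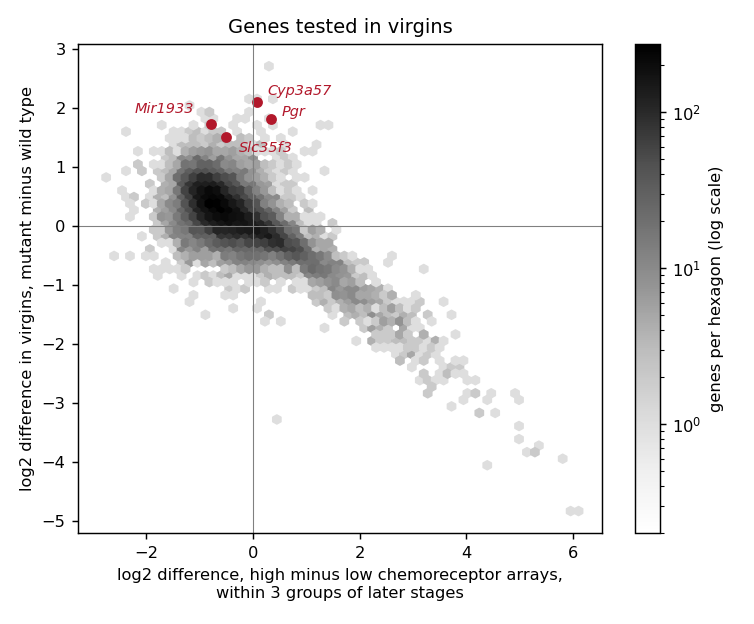
Each of 15234 genes by its log2 difference between high and low receptor arrays within 3 groups of later stages (horizontal axis) and its log2 difference in virgins, mutant minus wild type (vertical axis), with darker hexagons holding more genes. The cloud slopes downward (Pearson -0.73), and the 4 called genes, in red, sit at its upper edge, Cyp3a57 and Pgr right of 0 and Mir1933 and Slc35f3 left of 0.

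The question of the comparison is which genes differ between mutant and wild-type mice before pregnancy. Across all 24 arrays with 1 mean per group, 4 of 15234 genes (0.0263%) passed an adjusted p of 0.05 with limma, all of them higher in mutants: Cyp3a57, Slc35f3, Mir1933 and Pgr. No gene was called lower in mutants in that fit, which used neither array weights nor a covariate. Unless another fit is named, a call or pass below refers to that fit on 24 arrays. At an unadjusted p under 0.05 there were 2403 genes, 1901 higher and 502 lower. The median difference over all genes was 0.20 and 67.4% of genes lay above 0, so a gene or list is read against that shift. All mutant values lay above all wild-type values for 25.5% of the genes and below for 8.64%. The share above depended on a gene's mean level over the 24 arrays. It was 27 of 677 genes below 5 and 472 of 4230 from 5 to 6. At higher levels it was 1082 of 3975 from 6 to 7, 1266 of 3288 from 7 to 8 and 1039 of 3064 above 8. The median differences in the same order were -0.82, -0.04, 0.26, 0.38 and 0.32. Lists were not matched by level.

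Cyp3a57, a cytochrome P450 of the family that oxidises steroids and drugs, had the smallest p. It lay at 7.22, 6.15 and 6.97 in mutant virgins, against 5.07, 4.33 and 4.62 in wild-type virgins. The groups did not overlap, and the difference was 2.11 ± 0.23 (SE, n = 3 each), a fold of 4.30, with an adjusted p of 0.00025. At the later stages the gene was low in both genotypes, between 3.24 and 3.87 in mutants and between 3.15 and 4.18 in wild type, so the level in wild-type virgins was also above every later array. The difference in virgins exceeded the mean of the differences at the 3 later stages by 2.05 ± 0.27 (adjusted p 0.0038), and it was 1 of 2 genes (0.0131%) that passed this second test. Near-identical relatives could share its probes, but none of those measured rose alike: Cyp3a59, for instance, lay at 4.67, 4.28 and 4.97 in mutants, against 4.73, 4.71 and 3.96 in wild type. Within the 3 later groups, the arrays high in receptor genes differed from the low ones by 0.07 in Cyp3a57. The gene lay above the array's median only on the 3 mutant virgin arrays, so it entered the test through the group where it is high, and a filter of 6 arrays removed it.

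Pgr encodes the progesterone receptor, a textbook target of the oestrogen receptor. It lay at 8.27, 8.53 and 8.05 in mutant virgins, against 6.59, 5.62 and 7.22 in wild-type virgins. The mutant values were close together and all above the widely spread wild-type ones. The difference was 1.81 ± 0.32, a fold of 3.50, with an adjusted p of 0.0464. Later levels ran from 4.58 to 5.78 in mutants and from 4.58 to 6.53 in wild type, and the test of the virgin difference against later stages did not pass (1.88 ± 0.36, adjusted p 0.112). Arrays high in receptor genes differed from low ones in Pgr by 0.80 in mutant dp18, 0.38 in mutant Lac10 and -0.17 in wild-type dp18. Without wild-type replicate 2, the lowest, the difference was 1.38 with an adjusted p of 0.26, and Pgr also missed the threshold without mutant replicate 1 (0.0791), mutant replicate 2 (0.323) or wild-type replicate 1 (0.0759), with either centring (0.102 on the array median, 0.0638 on housekeeping genes) and with a filter of 6 arrays (0.0539).

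Slc35f3, a member of a solute carrier family described as a thiamine transporter, lay at 7.39, 6.82 and 6.93 in mutant virgins, against 5.65, 5.35 and 5.62 in wild-type virgins. The difference was 1.51 ± 0.24, a fold of 2.84, with an adjusted p of 0.0335. No later array reached the mutant virgins: the range was 4.92 to 6.33 in mutants and 4.75 to 6.30 in wild type. The gene was 0.51 lower in high than in low arrays of the 3 later groups. It missed the threshold without mutant replicate 1 (adjusted p 0.0791), mutant replicate 2 (0.0528), wild-type replicate 2 (0.26) or wild-type replicate 3 (0.0648).

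Mir1933 lay at 6.58, 7.00 and 6.63 in mutant virgins, against 4.84, 4.82 and 5.38 in wild-type virgins, a difference of 1.72 ± 0.29 (adjusted p 0.0347). Outside virgins it lay between 5.30 and 5.62 in the 4 high arrays and between 5.81 and 6.74 in the 14 low arrays, so its level separated the 7 high arrays from the 17 low ones without overlap. Within the 3 later groups it was 0.79 lower in high arrays, and the virgin difference exceeded the later mean by 2.23 ± 0.33 (adjusted p 0.0107). That later mean includes Lac10, where 2 mutant arrays and no wild-type array were high. Mir1933 missed the threshold in virgins in several alternatives, as follows. Its adjusted p was 0.06 without mutant replicate 1, 0.281 without mutant replicate 2, 0.0802 without wild-type replicate 1 and 0.26 without wild-type replicate 2. With array median centring it was 0.0509.

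**Figure D3:**
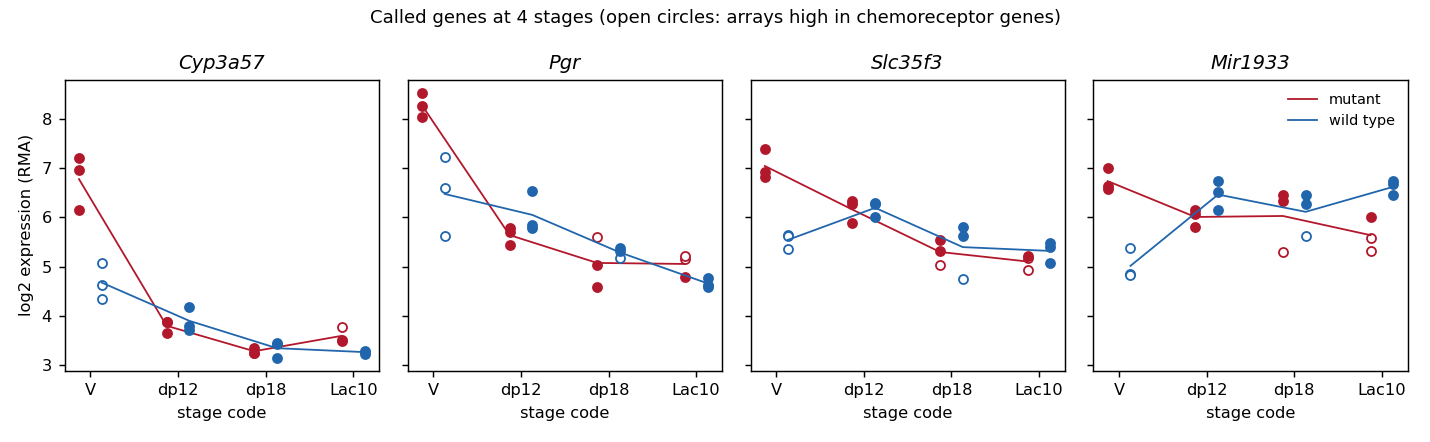
Log2 expression (vertical axis) of Cyp3a57, Pgr, Slc35f3 and Mir1933 at the stage codes V, dp12, dp18 and Lac10, mutants left of wild type, 1 circle per array, open where the array was high in olfactory and vomeronasal receptor genes, with lines joining group means (n = 3). Cyp3a57 is above 6 only in mutant virgins, and the open circles of Mir1933 lie below all filled ones.

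With the mean receptor level of each array added to the fit as a covariate, an alternative chosen after seeing the data, all 4 genes still passed. The covariate's slope rests mainly on the 3 later groups with both kinds of array. The difference was 2.14 ± 0.25 for Cyp3a57 (adjusted p 0.00033), 2.06 ± 0.32 for Pgr (0.00969), 1.21 ± 0.21 for Slc35f3 (0.0189) and 1.31 ± 0.22 for Mir1933 (0.0189). In that fit 17 genes (0.112%) passed, 14 higher (0.0919%) and 3 lower (0.0197%), and the median over all genes was -0.03. Some of these calls come from the covariate more than from the virgin values: Vmn1r80, called higher, had all mutant values below all wild-type ones (-0.69 on 24 arrays alone), and Mir297a-4, Mfsd1 and Actr1a differed by 0.03, -0.13 and -0.04 with overlapping groups. Greb1, an oestrogen-induced gene, was among the 14, at 5.54, 5.48 and 5.68 in mutants, against 5.28, 4.95 and 4.83 in wild type. Its difference was 0.55 ± 0.20 on 24 arrays alone (adjusted p 0.262) and 0.81 ± 0.15 with the covariate (adjusted p 0.0466). Nrxn3, a synaptic adhesion gene, led that fit with 2.10 ± 0.20 (adjusted p 3.57e-05), at 7.13, 8.02 and 7.38 in mutants, against 6.46, 5.63 and 6.36 in wild type.

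The 6 genes that followed in order of p were higher in mutants with no overlap, and none passed. Stc2, a secreted glycoprotein induced by oestrogen in human breast cancer cells, lay at 8.62, 8.84 and 8.38 in mutants, against 7.10, 7.37 and 7.63 in wild type (1.25 ± 0.23, adjusted p 0.0584). Reg3g, an antimicrobial lectin, lay at 6.18, 7.04 and 5.70 in mutants, against 4.56, 4.44 and 4.96 in wild type (1.65 ± 0.32, adjusted p 0.102), and passed with the covariate at 2.07 ± 0.27 (adjusted p 0.0017). Like Cyp3a57, Reg3g lay above the array's median only on the 3 mutant virgin arrays, through which it passed the filter. Chst8, a sulfotransferase that modifies pituitary hormones, differed by 1.19 ± 0.24 (adjusted p 0.114). The remaining 3, 2010310C07Rik, Lonrf1 and Nrbp2, differed by 1.28, 1.35 and 1.57 with adjusted p-values of 0.0703, 0.121 and 0.139. All 3 were lower in high than in low arrays of the later groups, by 0.38, 0.69 and 0.61 on the mean.

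**Figure D4:**
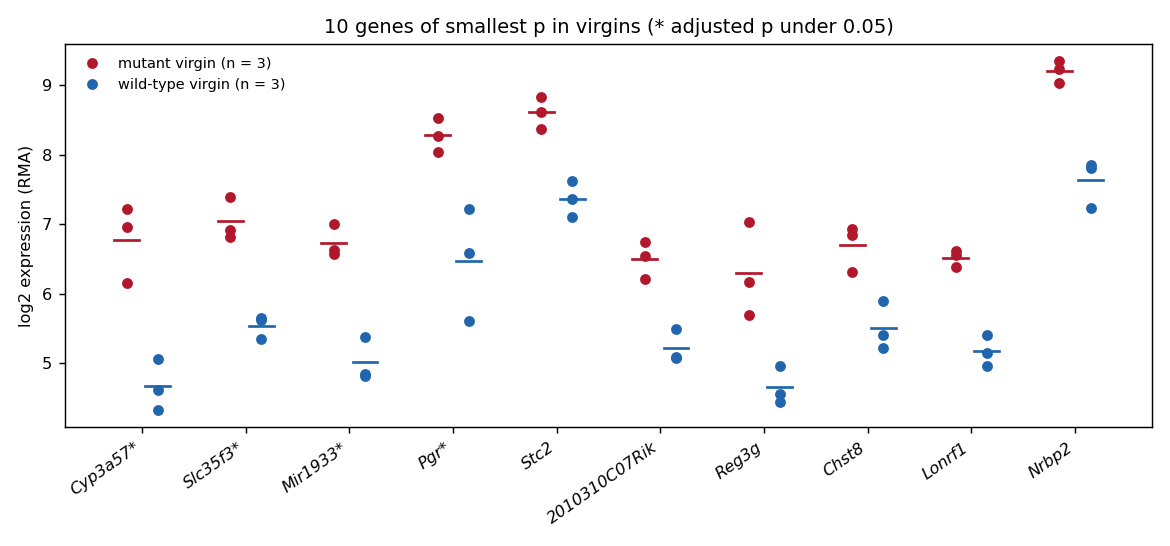
Log2 expression (vertical axis) of the 10 genes of smallest p in each virgin array, mutants in red left of wild type in blue, with bars at the means (n = 3 each) and asterisks at the 4 genes with an adjusted p under 0.05. In all 10 the mutant values lie above the wild-type values.

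Brca1, the gene of the series, did not separate the genotypes in virgins. It lay at 5.49, 4.85 and 4.33 in mutants, against 5.26, 4.67 and 5.18 in wild type, with a difference of -0.14 and a 95% interval from -0.78 to 0.50. The allele is not named and the probes may lie outside what it removes, so the value checks no label. Esr1, the oestrogen receptor, lay at 8.83, 8.49 and 7.28 in mutants, against 7.37, 7.24 and 7.49 in wild type (0.83 ± 0.41, adjusted p 0.32). Replicates 1 and 2 of the mutants were high and replicate 3 was level with the wild-type arrays. Foxa1, a factor that opens chromatin for the oestrogen receptor, lay at 10.0, 9.30 and 8.59 in mutants, against 8.69, 7.47 and 8.73 in wild type (1.01 ± 0.46, adjusted p 0.30).

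The hormone-sensing luminal list (Esr1, Pgr, Foxa1, Gata3 and others) had 10 members tested, of which Pgr passed, higher in mutants, and 9 lay above 0. Its median difference was 0.85, beside 0.20 over all genes, and 3 members (30%) had all mutant values above all wild-type values, beside 25.5% of all genes. Among all genes of a mean level from 7 to 8, 1266 of 3288 did so, with a median of 0.38. The list's mean level was 8.15, 7.82 and 7.52 in mutants, against 7.19, 6.78 and 7.20 in wild type, with no overlap. With the covariate its median was 0.66, beside -0.03 over all genes. At dp12, dp18 and Lac10 the list's median difference was -0.30, -0.22 and 0.14. Tfap2b, a luminal transcription factor, had values of 9.45, 8.00 and 7.42 in mutants, against 7.77, 5.96 and 7.20 in wild type, and did not pass.

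All 16 members of the progesterone and RANKL list lay above 0, with a median of 0.43, and only Pgr passed. Tnfsf11, which encodes RANKL, the signal that hormone-sensing cells send under progesterone, lay at 9.15, 6.25 and 5.43 in mutants, against 6.16, 5.39 and 5.78 in wild type. Its level was high in 1 mutant array alone, and the other 5 overlapped (1.17 ± 0.55, adjusted p 0.31). Wnt4, the second such signal, lay at 7.98, 7.28 and 7.38 in mutants, against 7.41, 6.98 and 7.11 in wild type. Ccnd1, which encodes cyclin D1, lay at 10.1, 10.2 and 9.39 in mutants, against 9.08, 8.40 and 9.11 in wild type (1.03 ± 0.45, adjusted p 0.28). With the covariate the list's median was 0.11.

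Of 30 oestrogen-responsive genes tested, 24 lay above 0, with a median of 0.47, and Pgr alone passed. Ltf, the milk iron-binding protein lactoferrin, lay at 9.47, 10.2 and 10.5 in mutants, against 8.33, 7.38 and 8.79 in wild type (1.90 ± 0.51, adjusted p 0.196). With the covariate the median was 0.10, and Pgr and Greb1 passed. Areg and Prlr had no probe set with 1 gene symbol and were not analysed here.

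All 25 luminal epithelium genes lay above 0 and 24 above the median of all genes, with a list median of 0.64, and none passed. Of these, 11 (44%) had all mutant values above all wild-type values, beside 25.5% of all genes. Among all genes of a mean level above 8 over the 24 arrays, 1039 of 3064 did so, with a median of 0.32. Elf3, an epithelial transcription factor, lay at 8.08, 8.75 and 8.43 in mutants, against 6.92, 6.85 and 7.60 in wild type. Lcn2, an iron-sequestering defence protein of luminal cells, lay at 11.1, 11.7 and 11.7 in mutants, against 10.5, 10.2 and 10.4 in wild type (1.09 ± 0.37, adjusted p 0.251). The basal and myoepithelial list had a smaller median, 0.31, with 16 of 19 members above 0. In whole tissue, more cells of a type and more RNA per cell cannot be told apart. With the covariate the luminal median was 0.36 and the basal median 0.21. Without 5 later arrays of low correlation the spread was smaller, and 20.3% of all genes were called higher and 6.33% lower (26.6% in all). In that fit 8 of the 25 luminal and 4 of the 10 hormone-sensing genes passed, all higher. The same held for 8 of 18 circadian clock, 7 of 18 sterol synthesis and 8 of 25 immediate early genes, so these calls were not particular to luminal lists. No mitosis or endothelial gene passed in it.

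Progenitor and alveolar genes lay above 0 in 15 of 16 cases (median 0.45), and milk and secretory genes in 19 of 27 (median 0.27). Above the median of all genes lay 14 of the 16 and 15 of the 27. None passed in either list. Sox9, a progenitor factor, had a difference of 1.30 ± 0.48 (adjusted p 0.262), and Aqp5, a water channel of virgin ducts, lay at 9.63, 9.01 and 9.67 in mutants, against 8.01, 7.14 and 8.12 in wild type (1.68 ± 0.38, adjusted p 0.151). Btn1a1, a milk fat globule protein, lay at 8.07, 7.90 and 10.4 in mutants, against 7.12, 7.19 and 6.87 in wild type, so 1 mutant array set much of its difference. The milk list's median was -0.09 without mutant replicate 3. With the covariate the medians were 0.21 for the progenitor list and 0.015 for the milk list.

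Of the 34 lists, sterol synthesis had the largest share of members lying higher without overlap: 9 of 18 (50%), beside 25.5% of all genes, with a median of 0.34. None passed on 24 arrays. Hmgcs1, the enzyme that starts the mevalonate pathway, lay at 8.69, 8.50 and 8.36 in mutants, against 7.36, 7.12 and 7.00 in wild type (1.36 ± 0.36, adjusted p 0.196). Cyp51, a demethylase of the later steps, lay at 6.93, 6.65 and 6.52 in mutants, against 4.68, 5.87 and 5.10 in wild type (1.48 ± 0.40, adjusted p 0.209). In a fit on the 6 virgin arrays alone, where 4.69% of all genes were called, 2.46% higher and 2.23% lower, 6 of the 18 passed: Cyp51, Hmgcs1, Sqle, Msmo1, Sc5d and Lss. With the covariate none passed and the median was 0.07.

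Stress and timing lists leaned the same way and had no member past the threshold. All 22 p53 targets lay above 0 (median 0.44), with Btg2, an antiproliferative gene, at 11.3, 10.8 and 11.6 in mutants, against 10.7, 10.6 and 9.64 in wild type. Immediate early genes, which respond within minutes to stimuli including tissue handling, lay above 0 in 23 of 25 cases (median 0.48). Circadian clock genes lay above 0 in 16 of 18 (median 0.47), among them Wee1, a kinase that holds back mitosis, at 9.80, 10.5 and 9.89 in mutants, against 9.35, 9.05 and 9.01 in wild type (0.91 ± 0.62, adjusted p 0.44). With the covariate these medians were 0.13, 0.22 and 0.06. Above the median of all genes lay 19 of 22 p53 targets, 20 of 25 immediate early genes and 14 of 18 clock genes.

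Genes of DNA repair and replication, the subject of the series, showed no call in virgins. The median was 0.11 over 32 homologous recombination and Fanconi genes, 0.13 over 52 replication genes and -0.27 over 43 mitosis genes, of which 37 lay below 0. With the covariate these medians were -0.13, -0.23 and -0.65. Without the 5 later arrays of low correlation, 6 of 52 replication genes (11.5%) and 4 of 32 repair genes (12.5%) were called higher. The share of all genes called higher in that fit was 20.3%. On the 6 virgin arrays alone 1 of 52 replication genes was called higher (1.92%, beside 2.46% of all genes). Mitosis genes averaged 5.89, 5.17 and 5.03 in mutants, against 6.04, 5.37 and 5.49 in wild type, so 1 array of each genotype was high and the groups overlapped. Mcm2, a replicative helicase subunit, lay at 7.19, 6.44 and 6.21 in mutants, against 6.31, 6.37 and 6.95 in wild type, with a difference of 0.07 ± 0.46. Mcm6 had the largest replication difference, 1.26 ± 0.48 (adjusted p 0.265). It lay at 8.38, 7.51 and 7.90 in mutants, against 6.66, 6.25 and 7.09 in wild type, without overlap. Atr, the kinase that guards stalled forks, had the largest repair difference, 0.96 ± 0.32 (adjusted p 0.244). A second probe set of Atr, of lower level, differed by 0.02, with means of 4.10 in mutants and 4.08 in wild type. Cdkn1a, the p53 target that halts the cycle, lay at 9.41, 9.83 and 9.77 in mutants, against 8.55, 9.86 and 9.49 in wild type.

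Stromal and muscle lists had medians below 0 on 24 arrays and above 0 without 1 wild-type array. Fibroblast and collagen genes had a median of -0.26, macrophage and neutrophil genes -0.43, endothelial genes -0.13 and skeletal muscle genes -0.44, and none passed. Without wild-type replicate 2 these medians were 0.04, 0.10, 0.41 and 0.07, and with the covariate on all arrays -0.60, -0.75, -0.78 and -0.66. The summed muscle list averaged 5.90, 5.99 and 6.38 in mutants, against 5.94, 7.52 and 6.02 in wild type. Acta1, skeletal muscle actin, lay at 7.49, 7.64 and 8.31 in mutants, against 7.14, 10.2 and 7.63 in wild type, so only wild-type replicate 2 was high. Pi16, a fibroblast gene, had the largest difference below 0 in these lists, at 7.01, 7.22 and 7.26 in mutants, against 7.84, 9.90 and 8.66 in wild type (-1.64 ± 0.42, adjusted p 0.179). Lymphocyte genes averaged 6.22, 7.38 and 5.50 in mutants, against 5.52, 7.51 and 5.44 in wild type, each genotype having 1 array high. The part of these cell types in the other results was not tested.

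In 6 further lists no member passed on 24 arrays. Of 11 salivary gland genes in the file, only 5 passed the filter on low values, all below 0 (median -0.83, and -0.33 with the covariate). These 5 averaged 4.81, 4.43 and 5.37 in mutants, below each array's median, against 5.72, 5.29 and 5.83 in wild type. Members may have passed the filter through arrays where they are high, so the count is only a description. Dcpp3, a salivary secretory gene, lay at 5.36, 5.48 and 5.63 in mutants, against 6.37, 6.35 and 6.35 in wild type (-0.86 ± 0.49, adjusted p 0.368). Interferon-stimulated genes, the antiviral response, had 19 of 22 members above 0 and 15 above the median of all genes. Their median was 0.29, which was -0.24 with the covariate. Fatty acid and triglyceride synthesis had 18 of 22 above 0 (median 0.16, and -0.23 with the covariate), and oxidative phosphorylation 17 of 39 (median -0.05). Only 10 of the 22 and 6 of the 39 lay above the median of all genes. White adipocyte genes had 11 of 21 above 0 (median 0.01), and housekeeping genes 15 of 21 (median 0.12, and -0.11 with the covariate). Only 8 adipocyte and 7 housekeeping genes lay above the median of all genes.

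**Figure D5:**
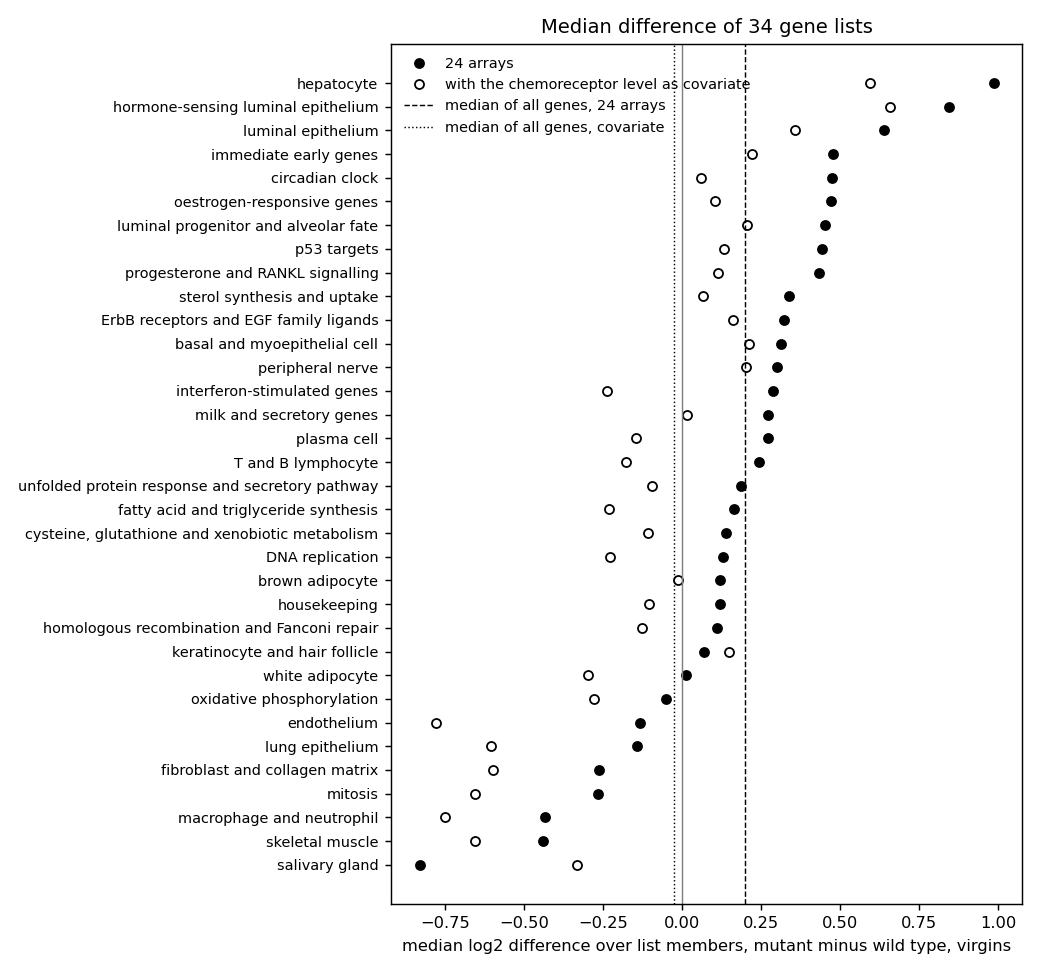
Median log2 difference in virgins, mutant minus wild type (horizontal axis), of the tested members of 34 gene lists, filled for the fit on 24 arrays and open with the mean receptor level as covariate, with vertical lines at the medians of all genes (0.20 dashed, -0.03 dotted). Hormone-sensing luminal genes lie furthest right of the all-gene line in the second fit at 0.66, and most other lists move toward or below 0.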

How the data were processed

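RNA of 24 mouse samples was measured on single-colour arrays, and the 6 virgin ones are compared here. The authors deposited log2 expression values made with RMA, per the submitters' processing notes (version and genome build not given in the sources used here). RMA brings arrays toward a common distribution, so a shift of most genes can be hidden. The deposited values still differed in distribution, with array medians from 5.31 to 5.62. The SD over all probe sets was 1.97, 1.96 and 1.91 in mutant virgins, against 1.77, 1.88 and 1.81 in wild-type virgins. Values ran from 1.98 to 13.5. Only the 23521 of 41345 probe sets annotated to a single symbol were used, and each of their 22180 genes was represented by its probe set of highest mean. The 15234 genes above the array's median on at least 3 arrays were tested.

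All 24 arrays were fitted with limma 3.58.1 (R 4.3.3) with 1 mean per group, leaving 16 residual and 4.35 prior degrees of freedom. Moderated two-sided tests with Benjamini-Hochberg adjustment over all genes (threshold 0.05) compared mutant with wild-type virgins, and that difference with the mean of those at dp12, dp18 and Lac10. The fit was tested on simulated data with independent noise and the same spread of a gene in all groups. The groups here differed in spread, so that run does not show how the calls behave in these data. For arrays, their number limits the precision. Gene lists are described by counts and medians, with no test. The comparison, members and lists were chosen with earlier results of these data known. Genes named were drawn from the 4 called, the 10 of smallest p and 12 followed throughout. From each list, up to 4 called members or the 2 largest differences were eligible, but not all of these are named. Others were chosen after their values were seen (receptor genes, Greb1 and Nrxn3 from the covariate fit, and list examples). Mutant numbers follow accession order and pair no samples. Sequences are from RefSeq tables. Alternatives covered probe set choice, the filter, centring, variance trend, array weights, the arrays in the fit, body weight, replicate number as a block and each virgin array left out.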

Additional observations from a re-analysis of the deposited data

Results flagged for a closer look

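The genotype difference of 2 genes was larger in virgins than at the later stages by the test of the difference itself (limma contrast, Benjamini-Hochberg over 15234 genes). For Cyp3a57 the excess was 2.05 ± 0.27 (SE, adjusted p 0.0038), with genotype differences of 2.11 in virgins and -0.10, -0.06 and 0.33 at dp12, dp18 and Lac10. For Mir1933 it was 2.23 ± 0.33 (adjusted p 0.0107), with 1.72 in virgins and -0.46, -0.08 and -0.98 later. The level of Mir1933 was lower in all 7 arrays high in olfactory and vomeronasal receptor genes than in the other 17. At Lac10 the high arrays were 2 of the mutant ones and none of the wild type, the reverse of virgins. The differences of 1.72 in virgins and -0.98 at Lac10 thus both lie in the direction of array state. The excess of Mir1933 cannot be fully told apart from it. With the mean receptor level as a covariate, chosen after seeing the data, the excess was 2.09 ± 0.29 for Cyp3a57 (adjusted p 0.0056) and 1.69 ± 0.26 for Mir1933 (adjusted p 0.0162).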

How the results depend on the processing

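Calls depended on which arrays set the spread: the median standard error was 0.30 with 24 arrays, 0.22 with the 6 virgin arrays alone and 0.19 without 5 later arrays of low correlation. Genes called higher, lower and against later stages numbered 4, 0 and 2 on 24 arrays. They numbered 374 and 340 on the 6 virgin arrays alone; 3092, 965 and 3862 without those 5 arrays; 4314, 1259 and 6152 with array weights; 397, 250 and 1568 with body weight, which drops 2 arrays; 50, 0 and 7 with housekeeping centring; 2, 0 and 2 with array median centring; 2, 0 and 1 with a filter of 6 arrays; and 6, 0 and 4 with no filter. The 2 arrays without a body weight were replicate 1 of mutant dp18 and of wild-type dp18, both among those 5 arrays. The weight adjustment and their removal thus cannot be told apart. Chosen after seeing the data, leaving out 3 arrays of lowest correlation gave 2263, 804 and 2791, and the receptor covariate 14, 3 and 5. Without 1 virgin array, calls ranged from 1 to 11 higher, 0 to 5 lower and 1 to 4 against later stages. The replicate block, whose numbers pair no samples, gave 4, 0 and 2. No pair of samples is linked in the labels. Cyp3a57 passed in all 19 alternatives that tested it; the filter of 6 arrays removed it. The median difference of all genes, 0.20, was 0.085 with housekeeping centring, 0.14 with array median centring and 0.025 with no filter.

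Signs turned for genes that were not called. With the covariate Hprt was -0.087, Ddx58 -0.023, Cd4 -0.058, Cdkn1a -0.0061, Irf4 -0.066 and Mcm2 -0.50. Mcm2 was also -0.041 with housekeeping centring and -0.33 with array weights. Leaving out 1 virgin array at a time gave a range from -0.21 to 0.28 for Mcm2, -0.020 to 1.35 for Krt6a, -2.03 to 0.0079 for Scgb2b27, -0.12 to 0.72 for Sprr1a, -0.44 to 0.14 for Brca1, -0.45 to 1.60 for Atp5d, -0.011 to 0.65 for Cdkn1a, -1.19 to 0.031 for Ckm, -1.13 to 0.17 for Actn3, -1.05 to 0.050 for Tie1 and -0.89 to 0.25 for Napsa. The causes were not tested.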

Other observations

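Several genes with large rises in virgin mutants did not pass the test. They were chosen after their values were seen. The nonagouti gene a, which sets coat colour, lay at 8.01, 7.31 and 8.07 in mutant virgins, against 5.02, 5.06 and 5.19 in wild-type virgins (2.71 ± 0.90, adjusted p 0.251). Outside virgins it fell into separate levels: 7 of 9 mutant arrays lay between 8.44 and 8.95, 1 at 6.54 and 1 at 4.96, and 8 of 9 wild-type arrays lay between 4.76 and 5.16, with 1 at 9.18. Fgf23, a hormone of phosphate balance, lay at 7.66, 7.56 and 7.07 in mutant virgins, against 5.33, 5.07 and 5.33 in wild-type virgins (2.19 ± 0.49, adjusted p 0.151). Cdo1, the enzyme that breaks down cysteine, lay at 10.2, 9.49 and 8.81 in mutant virgins, against 7.22, 7.01 and 8.11 in wild-type virgins (2.06 ± 0.52, adjusted p 0.171).

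Genes of blood plasma proteins made in liver and also induced in inflamed epithelium had the largest list median, 0.99 over the 6 of 16 hepatocyte markers that passed the filter. Fgb, a fibrinogen chain, lay at 8.09, 9.42 and 6.51 in mutants, against 5.39, 6.57 and 7.08 in wild type, and Fgg, another chain, at 9.22, 9.59 and 7.24 in mutants, against 6.04, 6.72 and 8.05 in wild type, with mutant replicate 3 inside the wild-type range for both. The defining marker Alb was below the array's median on all 6 arrays, and without the filter the list's median was -0.12.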
